A study of Mus musculus with 3 samples.

Results

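Transcripts of 10 genes for intermediate filaments and the desmosome were read in sorted cells of the mouse leptomeninges, the delicate inner coverings of the brain. The genes were chosen by symbol from the table of raw counts: Vim, Nes and Synm for non-epithelial filaments, Krt8, Krt18 and Krt19 for the simple keratins, and Dsp, Jup, Pkp2 and Pkp4 for the junctional plaque. All 10 symbols matched 1 row each, out of 46983 gene rows in all. The 3 libraries came from vehicle-treated mice, and their source is labelled pia enriched fraction, obtained by microdissection, dissociation and flow cytometric sorting. They form 1 group, so there was no contrast between treatments; genotype, strain, age, the vehicle and the sorting markers are not given in the sources used here, and nothing says whether the libraries came from separate mice. Spread between libraries may therefore be technical.

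Intermediate filaments are rope-like polymers that give a cell mechanical strength. Mesenchymal cells build them mainly from vimentin, whereas simple epithelia pair a type II keratin with a type I keratin in equal amounts. Desmosomes anchor keratin or vimentin filaments to the membrane: cadherins of the desmoglein and desmocollin families bind plakoglobin (Jup) and plakophilins, which bind desmoplakin (Dsp), which holds the filament. In the meninges, desmosomes are known as a feature of the arachnoid, the outer layer of the leptomeninges.

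In these cells the vimentin transcript led, the simple keratins were present at lower levels with more type I than type II message, and the desmosomal plaque was uneven. Plakoglobin was abundant at 127.9 ± 11.6 counts per 1000000 gene counts (CPM; SD, n = 3), while desmoplakin had 0 counts in 2 of 3 libraries. Of the 10 genes, 8 passed the filter on low counts and 0 of these 8 were called variable between libraries by the goodness-of-fit test of edgeR, which called 63 of 14409 genes (0.437%). A count of 0 among 8 cannot be told from that share.

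Gene counts ranged from 21002860 to 28704952 per library. CPM below are on scaled library sizes, on which a count of 0 allows up to 0.152, 0.101 and 0.116 CPM (3 counts) in libraries 1, 2 and 3, for counting error only. Across 14375 genes, the deviation of a library from the gene's mean log2(CPM + 1) had a Spearman coefficient with transcript GC content of 0.608 in library 1, -0.558 in library 2 and -0.310 in library 3, a description in which the 3 deviations of a gene sum to 0. Values without library 1, or with the trends on GC content and exon length removed, are given where they change a result. The libraries carried the fibroblast markers Col1a1, Col1a2, Col3a1, Dcn, Lum and Pdgfra (6 of 6 above 1 CPM, summing to 23467 to 29100 CPM). In bulk samples, fewer cells of a type and less RNA per cell cannot be told apart.

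Vim (chromosome 2, 13573927 to 13582826, plus strand, GENCODE M21 on GRCm38) encodes vimentin, the type III filament protein of mesenchymal cells. It measured 222.5, 310.9 and 581.1 CPM in libraries 1, 2 and 3, a mean of 371.5 ± 187 CPM (SD, n = 3). Library 3 was highest and library 1 lowest, 2.61-fold apart, and 2.14-fold apart after the trends on GC content and length were removed. The goodness-of-fit test of edgeR gave an unadjusted p of 0.070 and a Benjamini-Hochberg adjusted p of 0.795, so the difference between libraries did not pass. With those trends removed, the edgeR test gave an unadjusted p of 0.046 and an adjusted p of 0.735. The same test gave 0.027 and 0.737 without library 1, and 0.495 and 0.998 without library 3. Summed macrophage markers (Csf1r, C1qa, C1qb and Lyz2, 4 of 4 above 1 CPM) had the same order of libraries, at 9.14, 184.4 and 537.5 CPM. So did the sum of choroid plexus markers, most of it Ttr in libraries 2 and 3. Clic6 (13.5, 43.3 and 41.3 CPM) and Otx2 (17.8, 35.7 and 30.8 CPM) of that list were highest in library 2. The edgeR test called 4 of 4 macrophage markers variable between libraries, and 3 of 6 choroid plexus markers (Ttr, Kcnj13 and Kl). The sums of arachnoid barrier markers (243.7, 366.5 and 429.7 CPM) and ependymal markers (7.17, 12.5 and 12.8 CPM) also had the order of Vim. Within them Tjp1, Dpp4 and Rsph1 were highest in library 2, and Cldn11 in library 1. Library 1 was the lowest in 40.4% of all 14409 filtered genes. The part of any of these lists in the level of Vim was not tested. Per kilobase of exon Vim was at 78.3 ± 39.4 CPM, in the top 2.60% of 24953 genes with a count and an annotated length.

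The sequence before the RefSeq start of Vim is shown as the 30 bases around a match to the TATA motif (GRCm38.p6, RefSeq, chr2:13574267-13574296, plus strand), which lie inside the Vim gene as GENCODE M21 annotates it. They are shown since it is the only window among those of the 8 genes with a RefSeq entry that holds the letters TATAAA, in capitals.
Vim: tcctaacagtgtTATAAAagcagcgccctt
The motif starts 32 bases before the RefSeq start site, and TATAAA or its reverse complement TTTATA stands in 12.4% of 32817 RefSeq windows of 250 bases before a start.

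Synm (chromosome 7, 67730160 to 67759742, minus strand) encodes synemin, a large type IV protein that needs vimentin or desmin as a partner to assemble. Its levels were 33.7, 42.1 and 52.5 CPM in libraries 1, 2 and 3 (42.8 ± 9.41, SD, n = 3). The order of libraries was that of Vim, with a narrower spread of 1.56-fold. Per kilobase, Vim exceeded Synm 11.0-fold, 12.3-fold and 18.5-fold in the 3 libraries. Of the annotated exon bases of Synm, 6.43% overlap genes on the opposite strand.

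Nes (chromosome 3, 87971078 to 87980451, plus strand) encodes nestin, a type IV protein best known from neural progenitors and also made by endothelial and mural cells. Nes was low, at 8.13, 4.50 and 8.91 CPM (7.18 ± 2.35, SD, n = 3), with library 2 lowest. Its level per kilobase, 1.12 ± 0.37 CPM, lay near the median of 0.718 CPM over genes with a count. The sum of the mural markers (Acta2, Tagln, Myh11, Rgs5 and Cspg4) was also lowest in library 2, at 2364 CPM, with 2666 and 4557 CPM in libraries 1 and 3, although Myh11 and Rgs5 were lowest in library 1. The endothelial markers summed to 76.4, 56.3 and 61.4 CPM in libraries 1, 2 and 3, lowest in library 2 as well. Within that sum Egfl7 and Pecam1 were lowest in library 2. Cdh5 was lowest in library 3 (32.6, 33.8 and 20.4 CPM) and Cldn5 in library 1 (1.16, 2.22 and 3.20 CPM). The sums of astrocyte markers (52.9, 39.6 and 79.4 CPM) and lymphatic endothelial markers (15.9, 8.80 and 17.0 CPM) were lowest in library 2 too. Both were highest in library 3, as Nes and the mural sum were. Of the astrocyte list, Aldh1l1 and Aqp4 were lowest in library 1. Whether any of these lists bears on Nes was not tested.

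**Figure D1:**
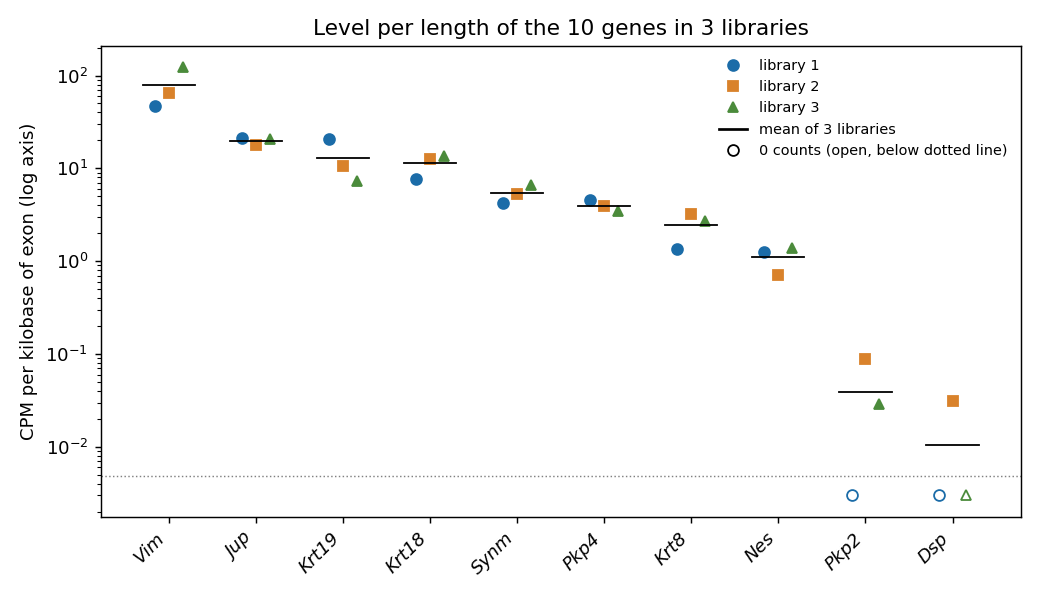
CPM per kilobase of exon (log axis) of the 10 genes in libraries 1 to 3 (points) with the mean of the 3 libraries (black line); open symbols below the dotted line had 0 counts. Vim lies highest at a mean of 78.3, 8 genes have a mean above 1, and Pkp2 and Dsp lie below 0.1 in every library.

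The simple keratins did not share an order of libraries. Krt8 (chromosome 15, 101996698 to 102004482, minus strand), the type II keratin of simple epithelia, was at 2.68, 6.32 and 5.32 CPM in libraries 1, 2 and 3 (4.77 ± 1.88, SD, n = 3). Krt18 (chromosome 15, 102028180 to 102032027, plus strand), its usual type I partner, was at 11.0, 18.3 and 19.6 CPM (16.3 ± 4.64). Both were lowest in library 1, and libraries 2 and 3 lay close together. Krt19 (chromosome 11, 100140810 to 100148665, minus strand), a type I keratin with almost no tail domain that is used as a marker of arachnoid barrier cells, went the other way at 38.5, 19.8 and 13.6 CPM (24.0 ± 13.0). Library 1 was highest for Krt19, with 2.84 times the level of library 3. Over 14409 filtered genes, library 1 was lowest in 40.4% and highest in 39.6%.

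None of these spreads passed the test. The edgeR goodness-of-fit p was 0.400 for Krt8, 0.521 for Krt18 and 0.10 for Krt19 unadjusted, and the adjusted p was at least 0.889 for each. Removal of the trends on GC content and length widened the spread of Krt18 from 1.78-fold to 2.84-fold (8.15, 23.1 and 20.7 CPM) and that of Krt8 from 2.36-fold to 3.69-fold, with library 1 still lowest. The same step narrowed Krt19 to 2.09-fold (29.7, 24.3 and 14.2 CPM), with library 1 still highest. The unadjusted p of Krt18 was then 0.037 and the adjusted p 0.686 (edgeR).

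Type I and type II message were not balanced. Krt18 and Krt19 together exceeded Krt8 per kilobase 20.8-fold, 7.26-fold and 7.72-fold in libraries 1, 2 and 3, a mean log2 difference of 3.39 ± 0.85 (SD, n = 3). All 3 libraries had this direction, and the two-sided exact sign-flip permutation test gave p = 0.25, the smallest that 3 libraries allow. Krt18 alone exceeded Krt8 5.60-fold, 3.95-fold and 5.03-fold. Of the summed type I level, Krt19 made up 73.0% in library 1, 45.6% in library 2 and 34.9% in library 3. Part of Krt8 cannot be read uniquely: 29.7% of the 50-base stretches of its longest transcript also stand in other annotated genes, mostly the pseudogene Krt8-ps, against 0.720% for Krt18 and 0 for Krt19. With lengths counted only over unique stretches, a setting chosen after seeing the data, the log2 difference was 3.03.

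Krt8 and Krt18 lie 23.7 kb apart on chromosome 15 with 0 protein-coding genes between them, a rare case of a type I gene beside the type II cluster. Their upstream sequences (GRCm38.p6, RefSeq, chr15:102004483-102004592 on the minus strand and chr15:102027966-102028179 on the plus strand) are printed because the pair had the same lowest library, and end where the GENCODE gene begins. That library, library 1, was also the lowest in 40.4% of 14409 filtered genes. No letters are in capitals, as none of the TATA, CCAAT and GC box motifs spelled out here stands in either window of 250 bases.
Krt8: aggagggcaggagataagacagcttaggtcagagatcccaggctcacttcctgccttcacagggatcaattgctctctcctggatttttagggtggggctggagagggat
Krt18: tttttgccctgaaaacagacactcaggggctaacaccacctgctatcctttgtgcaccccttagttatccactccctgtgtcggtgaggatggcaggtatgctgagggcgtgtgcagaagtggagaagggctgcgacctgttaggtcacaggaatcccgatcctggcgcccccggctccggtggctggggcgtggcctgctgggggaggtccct
Over all 32817 windows, the letters CCAAT, read on either strand, stand in 33.8%. The GC box letters GGGCGG, on either strand, stand in 32.7%.

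**Figure D2:**
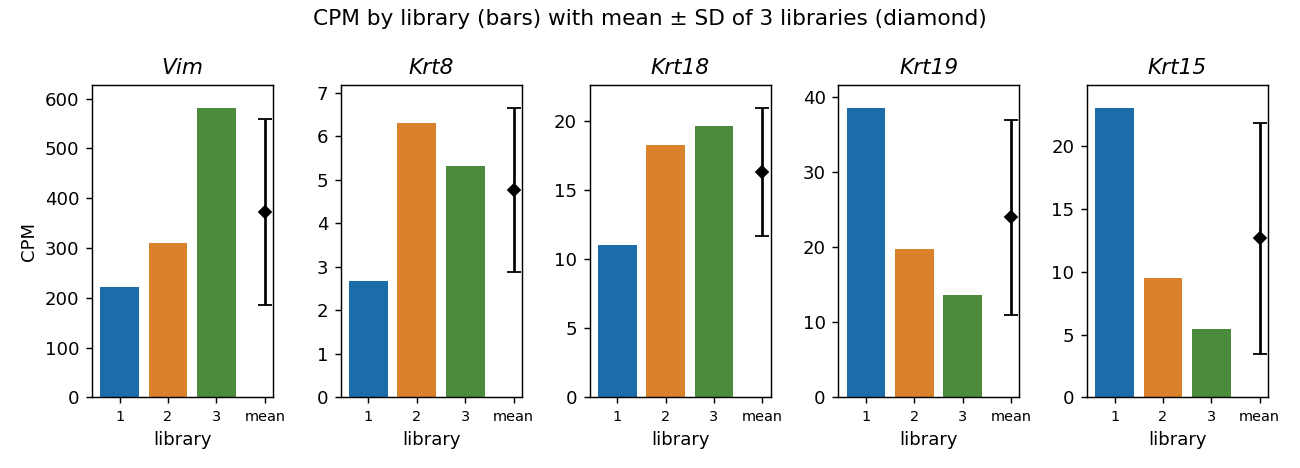
CPM in libraries 1 to 3 (bars, linear axes from 0, a scale for each gene) with the mean ± SD of 3 libraries (diamond) for Vim, Krt8, Krt18, Krt19 and Krt15. Library 1 is the lowest bar for Vim, Krt8 and Krt18 and the highest for Krt19 and Krt15.

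Few of the other keratins reached a mean of 1 CPM. Of 48 other keratin genes in the table, 19 had 0 counts in every library, including Krt5 and Krt17 of stratified epithelium, whereas 46.6% of all 46983 gene rows had none in any library. A mean of at least 1 CPM was reached by 6 of the 48, against 30.2% of all rows, and 6 passed the filter. Their median level was 0.017 CPM, as over all rows (0.017 CPM). The highest per kilobase was Krt15, a type I keratin of basal epithelial cells, at 23.0, 9.48 and 5.48 CPM in libraries 1, 2 and 3. Krt15 had the order of libraries seen for Krt19, its neighbour 4.88 kb away on chromosome 11, and did not pass the edgeR test (unadjusted p = 0.034, adjusted p = 0.601). Krt20, known from gut epithelium, was at 11.9 ± 1.81 CPM and Krt10, a type I keratin of the differentiated epidermis, at 6.54 ± 2.43 CPM. Krt12 was at 6.10 ± 1.32 CPM, but 54.4% of its exon bases overlap a gene on the opposite strand and its value is uncertain. Krt222 was at 3.38 ± 0.47 CPM. Krt25, a keratin of the hair root sheath, had 165 counts in library 2 and 0 in libraries 1 and 3, so its mean above 1 CPM rests on 1 library.

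Epithelial and mesothelial cells also make simple keratins, and their markers were low. The epithelial markers (Epcam, Cldn4, Cldn7 and Elf3) summed to 10.8, 3.23 and 2.08 CPM in libraries 1, 2 and 3, most of it Elf3 (9.90, 2.52 and 1.27 CPM), whereas Epcam had 1, 3 and 0 counts. This sum had the order of libraries of Krt19 and Krt15. Mesothelial markers (Msln, Upk3b, Lrrn4 and Wt1) summed to 0.051, 1.04 and 0.424 CPM, with Wt1 at 0 counts. Choroid plexus markers (Ttr, Folr1, Kl, Kcnj13, Clic6 and Otx2) summed to 71.4, 1761 and 2715 CPM, lowest in library 1 as Krt8 and Krt18 were. Arachnoid barrier markers (Cldn11, Cdh1, Dpp4, Tjp1 and Abcg2) summed to 243.7, 366.5 and 429.7 CPM, with 5 of 5 above 1 CPM. That sum was lowest in library 1, where Krt19 was highest, and most of it was Abcg2 (176.1, 279.1 and 339.2 CPM). Cdh1 (8.23, 15.6 and 17.3 CPM), Tjp1 (23.8, 39.7 and 34.5 CPM) and Dpp4 (0.808, 7.12 and 6.21 CPM) were also lowest in library 1. Only Cldn11 of this list was highest in library 1 (34.7, 25.1 and 32.4 CPM). The part of these cells in the keratin levels was not tested. The other marker sums ranged over libraries from 8.80 to 17.0 CPM for lymphatic endothelial, 7.17 to 12.8 CPM for ependymal, 39.6 to 79.4 CPM for astrocyte and 58.5 to 80.4 CPM for neuron markers.

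Among the cytoplasmic filament transcripts listed here, Vim held the largest share of any single gene. The list was Vim, Des, Synm, Nes, Gfap, the keratins above, Prph, Nefl, Nefm, Nefh, Ina, Bfsp1 and Bfsp2. Of the summed level per kilobase of these listed genes, Vim made up 38.3%, 48.8% and 64.1% in libraries 1, 2 and 3 (50.4% ± 13.0, SD, n = 3). Krt8, Krt18 and Krt19 together made up 24.3%, 19.9% and 12.4%, and the other keratins 21.1%, 18.6% and 9.57%. All keratins combined, at 45.4%, exceeded Vim in library 1 but not in libraries 2 and 3 (38.5% and 22.0%). Des, the desmin of muscle and mural cells, held 6.53% ± 1.24, Synm 3.63% ± 0.28, Gfap, the astrocyte and non-myelinating Schwann cell filament, 1.27% ± 0.21, and Nes 0.762% ± 0.26. These are shares of 1 sum, so a higher share of Vim lowers the others. In level per kilobase the 3 simple keratins summed to 29.8, 26.6 and 23.7 CPM, and Vim to 46.9, 65.5 and 122.5 CPM.

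**Figure D3:**
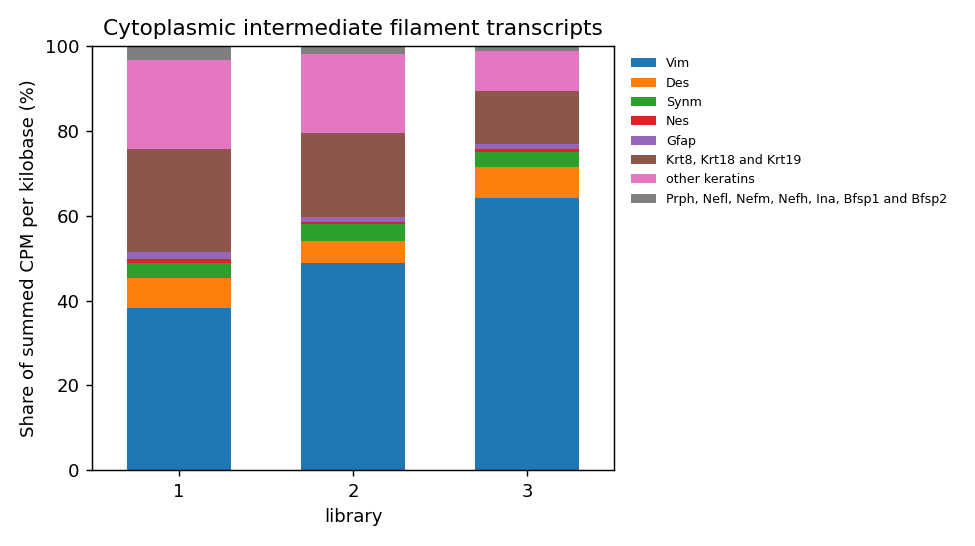
Share of the summed CPM per kilobase of exon (percent, stacked bars) of the listed cytoplasmic intermediate filament genes in libraries 1 to 3. Vim grows from 38.3% in library 1 to 64.1% in library 3, while the 3 simple keratins hold 24.3% and 12.4% in those libraries.

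Of the 12 other listed filament genes outside the keratins, 7 had a mean of at least 1 CPM and 8 passed the filter, with a median of 1.67 CPM. Lmna, which encodes the A-type lamins of the nuclear envelope, was at 432.8 ± 118 CPM. Its level per kilobase, 74.1 ± 20.2 CPM, was within the spread of Vim. Des was at 37.2 ± 14.5 CPM and Lmnb2 at 15.8 ± 2.77 CPM. Gfap was at 7.84 ± 1.49 CPM, the lens filament gene Bfsp1 at 3.59 ± 1.94 CPM and Lmnb1, a B-type lamin, at 1.90 ± 0.55 CPM. Of the neurofilament genes, Nefl had 0, 0 and 7 counts.

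The plaque genes fell into a high and a near-silent set. Jup (chromosome 11, 100368958 to 100397763, minus strand) encodes plakoglobin, which serves both desmosomes and the cadherin-catenin adherens junction. Its levels were 136.6, 114.8 and 132.3 CPM in libraries 1, 2 and 3. This spread of 1.19-fold was the narrowest of the 8 genes past the filter. With the trends on GC content and length removed, Jup was at 114.7, 130.1 and 139.4 CPM, with library 1 lowest rather than highest. The narrowest spread of the 8 genes was then that of Pkp4, at 1.16-fold. Dsp (chromosome 13, 38151294 to 38198577, plus strand) encodes desmoplakin, the link from plaque to filament and an obligate desmosome component. Dsp had 0, 9 and 0 counts, which is 0.302 CPM in library 2 and up to 0.152 and 0.116 CPM allowed in libraries 1 and 3. Per kilobase, Jup was at least 1353-fold higher than Dsp in library 1, 569.6-fold higher in library 2 and at least 1717-fold higher in library 3, with the floor of 3 counts per library where Dsp had 0.

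Pkp2 (chromosome 16, 16213318 to 16272712, plus strand), the plakophilin of cardiac and simple epithelial desmosomes, had 0, 14 and 4 counts, or 0.470 CPM in library 2 and 0.154 CPM in library 3. Both Dsp and Pkp2 were highest in library 2, and neither passed the filter on low counts. Pkp4 (chromosome 2, 59160850 to 59355208, plus strand) encodes p0071, an armadillo protein of the p120 family that is found at adherens junctions as well as desmosomes. Pkp4 was at 25.9, 22.5 and 19.6 CPM (22.7 ± 3.15, SD, n = 3), a spread of 1.32-fold. Per kilobase, Jup exceeded Pkp4 4.67-fold, 4.53-fold and 5.98-fold in the 3 libraries.

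The 250 bases before the RefSeq starts of Jup (chr11:100397791-100398040, minus strand) and Dsp (chr13:38151044-38151293, plus strand), both GRCm38.p6, are printed because these plaque genes lie at opposite ends of the plaque levels. Capitals mark CCAAT and GC box letters on either strand.
Jup: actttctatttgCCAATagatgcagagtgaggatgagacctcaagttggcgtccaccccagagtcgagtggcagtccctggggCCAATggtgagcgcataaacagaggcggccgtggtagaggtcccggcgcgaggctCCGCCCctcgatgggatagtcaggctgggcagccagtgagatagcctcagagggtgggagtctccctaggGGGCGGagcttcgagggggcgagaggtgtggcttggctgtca
Dsp: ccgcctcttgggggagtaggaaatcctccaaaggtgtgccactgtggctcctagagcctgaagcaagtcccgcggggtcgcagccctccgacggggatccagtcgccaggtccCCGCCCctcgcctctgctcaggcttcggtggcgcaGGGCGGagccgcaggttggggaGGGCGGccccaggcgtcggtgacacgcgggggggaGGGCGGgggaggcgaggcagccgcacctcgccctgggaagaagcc
The window of Jup holds 2 CCAAT and 2 GC box matches, and that of Dsp 0 and 4, with a GC content of 62.0% and 72.4%. Neither holds a TATA match. These matches are letters only and say nothing of binding.

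The membrane cadherins of the desmosome had few counts. Of the 12 other desmosome genes, 6 had 0 counts in every library (Dsg1a, Dsg1b, Dsg1c, Dsg3, Dsg4 and Dsc1), close to the 46.6% of all rows, and the median was 0.032 CPM against 0.017 CPM over all rows. All 9 desmogleins and desmocollins together had 32, 62 and 51 counts in libraries 1, 2 and 3. Dsg2, the desmoglein of simple epithelia, had 7, 33 and 11 counts, Dsc2 had 5, 22 and 10, and Dsc3 had 20, 7 and 30. The plakophilins Pkp1 and Pkp3 had counts in library 3 only, 6 and 5. Summed per kilobase, the desmosomal cadherins exceeded Dsp at least 17.7-fold in library 1, 10.1-fold in library 2 and at least 28.3-fold in library 3. With 0.5 counts added to Dsp, the mean log2 difference of Dsp minus these cadherins was -5.80 ± 2.22 (SD, n = 3; two-sided exact sign-flip permutation p = 0.25), a value that depends on the added count.

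Perp was the exception in that list and the only gene of it with a mean of at least 1 CPM. Perp encodes a tetraspan membrane protein of desmosomes that is also a target of p53, and was at 41.4, 65.6 and 61.1 CPM (56.0 ± 12.9, SD, n = 3). Its level per kilobase of 28.7 ± 6.60 CPM was near the 19.9 ± 1.80 CPM of Jup.

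Adherens junction plaque genes were well represented beside Jup. All 5 (Ctnna1, Ctnnb1, Arvcf, Ctnnd1 and Ctnnd2) exceeded 1 CPM, with a median of 31.5 CPM. Ctnna1, the alpha-catenin that binds actin, was at 366.7 ± 28.0 CPM, and Ctnnb1, beta-catenin, the close relative of plakoglobin, at 209.4 ± 13.8 CPM. Per kilobase, Jup stood at 0.569, 0.428 and 0.489 times Ctnnb1 in libraries 1, 2 and 3. Arvcf and Ctnnd1, p120 family members like Pkp4, were at 31.5 ± 6.15 and 31.5 ± 10.5 CPM, and Ctnnd2 at 17.8 ± 2.47 CPM. Ctnnd1 is uncertain, as 61.2% of its exon bases overlap another annotated gene on the same strand.

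Plakins tie filaments to junctions or to other fibres. Plec, plectin, which links vimentin to actin and to adhesion sites, was at 241.3, 171.2 and 297.5 CPM (236.7 ± 63.3, SD, n = 3). Macf1 and Dst, the actin and microtubule crosslinkers, were at 107.3 ± 35.1 and 71.9 ± 15.9 CPM. Evpl and Ppl, envoplakin and periplakin of the epidermal envelope, were at 1.38 ± 0.31 and 1.89 ± 1.02 CPM. All 5 passed the filter, and the median was 71.9 CPM.

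**Figure D4:**
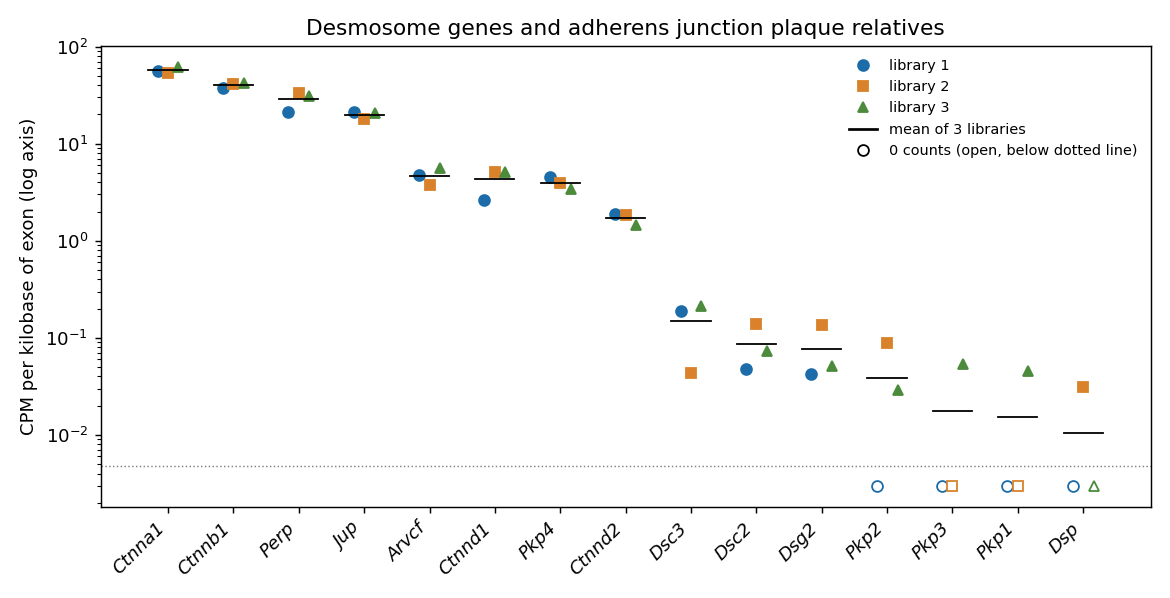
CPM per kilobase of exon (log axis) of desmosome genes and adherens junction plaque relatives in libraries 1 to 3 (points) with the mean (black line); open symbols had 0 counts. Ctnna1, Ctnnb1, Perp and Jup lie above 10, whereas the desmosomal cadherins with a count, Pkp1 to Pkp3 and Dsp lie below 1.

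The order of the 10 genes per kilobase of exon was Vim, Jup, Krt19, Krt18, Synm, Pkp4, Krt8, Nes, Pkp2 and Dsp. The higher gene of a neighbouring pair was higher in all 3 libraries in 6 of 9 pairs. Krt19 exceeded Krt18 in 1 of 3 libraries only (mean log2 difference 0.09 ± 1.21), and without library 1 that difference was -0.58. Synm exceeded Pkp4 in 2 of 3 libraries (0.43 ± 0.52). Pkp2 exceeded Dsp in libraries 2 and 3, whereas library 1 had 0 counts of both and gave no order. Ranges did not overlap for Vim over Jup, Krt18 over Synm, Pkp4 over Krt8 and Nes over Pkp2, and overlapped in the other 5 pairs. For the 6 pairs with 1 direction in all 3 libraries the exact sign-flip permutation p was 0.25, or 0.375 after adjustment over 9 pairs, and 3 libraries allow nothing smaller.

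Variation between libraries was tested over all 14409 filtered genes with the goodness-of-fit test of edgeR, in which 63 genes (0.437%) were called at an adjusted p under 0.05 and 1015 had an unadjusted p under 0.05. Among the 8 genes of the set that were tested, 0 were called and 0 had an unadjusted p under 0.05. The adjusted p ranged from 0.795 for Vim to 0.9997 for Jup, Nes, Synm, Krt8, Krt18 and Pkp4. The median range of the 8 over libraries was 0.81 on the log2(CPM + 1) scale, against 0.67 over all tested genes. The test recovered 110 of 200 simulated 8-fold changes among 14409 genes, so changes of the size seen here could be missed.

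By root mean square difference in log2(CPM + 1) over the 3 libraries, the genes nearest to Vim in level and pattern were Sparcl1 (0.14), Dstn (0.19) and Msn (0.24). Those nearest to Krt18 were Aatf (0.03), Wdpcp (0.04) and Abcd2 (0.05). With 3 libraries many genes lie this near, and Dsp was not in the filtered table.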

How the data were processed

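Counts per gene were read from 3 libraries of 1 group. Per the labels' protocols, 2 ng of RNA was amplified with SMART-Seq v4, a kit that does not mark strand, and sequenced in 50 bp paired reads. The deposited values are raw counts; HTSeq 0.5.3, DESeq2 1.22.1 and build mm10 are named, per the submitters' processing notes. The aligner, the annotation release and the strand setting are not given in the sources used here. The 5 counter rows, 39.1% to 45.6% of each total, were left out. The genes and lists were chosen with earlier results of these data known.

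Gene models, lengths (union of exons) and transcript GC content came from GENCODE M21 on GRCm38 (98.9% of identifiers matched), sequences from RefSeq windows on GRCm38.p6, found for 8 of the 10 genes. CPM used TMM library sizes (edgeR 4.0.16, R 4.3.3). Genes passed filterByExpr at 10 counts. The goodness-of-fit test of edgeR asked whether a gene varied between libraries beyond its trended dispersion (2 degrees of freedom, Benjamini-Hochberg, threshold 0.05), tested on simulated data; with 1 group the quasi-likelihood test has no contrast. Levels between genes are compared per kilobase, with 0.5 counts added for log2 differences of neighbours in the order; a library with 0 counts of both was a tie. Named were all 10 genes and, of each fixed list, up to 6 genes at 1 CPM or more, highest per kilobase; genes below 1 CPM are named where a count needed it, chosen after their values were seen. Alternatives were other size factors, filter, dispersion, lengths, removal of GC and length trends, and each library left out. The sum of 1 list of cell type markers is not reported here.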

Additional observations from a re-analysis of the deposited data

How the results depend on the processing

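The count of variable genes among the 10 was 0 under each of the 8 alternatives, and the lowest adjusted p of any of the 8 tested genes was 0.652 (edgeR; highest 0.99998). All 30 values of a mean level under other size factors, plain totals, or removal of GC content and length trends stayed within 1 SD. Without library 2, the mean fell to 0 CPM for Dsp (0.10 with all libraries) and to 0.076 CPM for Pkp2 (0.208). Over all genes, 63 variable genes became 138 with no filter on low counts (25083 genes tested), 111 with the GC content and length trends removed, and 12 to 28 with each library left out in turn, on fewer samples; the cause of the rise to 111 was not tested. Krt19 minus Krt18 per kilobase (0.09) reversed to -0.58 without library 1 and ranged up to 0.59 without library 3. The log2 difference of type I over type II keratins was 2.90 to 3.66 with a library left out and 3.52 with longest-transcript lengths, and that of Dsp minus desmosomal cadherins -7.07 to -5.00 and -5.99. The Vim share was 43.6% to 56.5% with a library left out and 59.7% with longest-transcript lengths, alternatives chosen after seeing the data. Longest-transcript lengths also removed the overlap of Jup with Krt19. No paired analysis was possible because there was only 1 group. Depth limited Dsp and Pkp2, whose largest counts were 9 and 14.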
